A study of Rattus norvegicus with 36 samples.

Results

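Binding of phosphorylated CREB (pCREB) was compared between corticosterone-treated and vehicle-treated trained rats at all 14722 regions of the deposited pCREB list, out of 20029 regions listed for pCREB and the glucocorticoid receptor (GR) together. The regions were taken by their antibody label alone and then divided by whether at least 1 bp overlapped a region of the separate GR list: 4243 (28.8%) did and 10479 (71.2%) did not. The study addressed glucocorticoid enhancement of memory formation with chromatin immunoprecipitation and sequencing (ChIP-seq) of hippocampus from male Sprague-Dawley rats. All 36 samples carried this strain, with no genetic manipulation named in the labels, and the 8 compared here were 4 libraries of trained rats given vehicle and 4 of trained rats given corticosterone. Each library held chromatin from 4 hippocampi of 2 rats, so that animals within a library cannot be separated, and each chromatin pool was divided between an antibody to GR and one to CREB phosphorylated at a serine of its activation domain. A further 8 pCREB libraries came from untrained rats, 4 with vehicle and 4 with corticosterone, and entered the same statistical model. The type of training, the dose, the times and the ages were not given in the sources used here. Whole hippocampus holds neurons, glia and vessel cells, and a smaller number of cells with a bound site cannot be told apart from less binding per cell.

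CREB is a transcription factor that binds DNA at cAMP response elements, often close to gene starts. Kinases downstream of cAMP and calcium signalling phosphorylate it, which recruits coactivators such as CBP and p300, and in the hippocampus this step is known for its part in activity-dependent transcription and long-term memory. Corticosterone, the main glucocorticoid of rodents, activates GR, which moves to the nucleus and binds DNA directly at its own response elements or through other factors. A region shared by both lists is therefore a place where the 2 proteins can be compared in the same chromatin pools.

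No pCREB region was called as changed by corticosterone in trained rats. Of 14553 regions that passed the filter on low counts, 0 (0%) reached a Benjamini-Hochberg adjusted p under 0.05 in edgeR's quasi-likelihood test, and the smallest adjusted p was 0.78. This was 0 of 4234 tested regions with GR overlap and 0 of 10319 without. DESeq2 also called 0 regions. At an unadjusted p under 0.05, edgeR gave 865 regions (5.94%) and DESeq2 gave 821. The remaining 169 regions, 9 with and 160 without GR overlap, held too few reads to be tested. The median log2 fold change over all tested regions was -0.003, and 118 regions (0.811%) had a fitted difference of more than 2-fold. The scaling between libraries (TMM) takes most regions as unchanged, so a change shared by most regions would be removed from this median.

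The size of change that these libraries left possible differed from region to region. The 95% interval of the fold change lay within 2-fold in both directions at 8885 tested regions (61.1%). Among regions with GR overlap this was so at 3460 (81.7%), and among those without at 5425 (52.6%). The median standard error of the log2 fold change was 0.296 with and 0.339 without GR overlap. At the other regions a change of 2-fold or more lay within the interval. Regions without GR overlap in the highest quartile of level, the most deeply covered, had a median standard error of 0.366, and 25.3% of them had an interval within 2-fold.

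Reads counted in pCREB regions numbered 555104, 562249, 325639 and 412770 in trained vehicle libraries A to D. They numbered 143219, 543497, 323554 and 491594 in trained corticosterone libraries A to D. Corticosterone A was the shallowest of the 16 pCREB libraries, with a median of 6 reads per region where the other 7 trained libraries had 17 to 28. The mean log2 total was 18.79 ± 0.378 for vehicle and 18.35 ± 0.875 for corticosterone (SD, n = 4 each; exact two-sided permutation p = 0.4, 0.6 after adjustment over 3 tests of libraries). The 2 groups overlapped in depth, and the smallest p that 4 against 4 libraries allow is 0.0286.

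The number of peak calls followed the order of the reads among corticosterone libraries. It did not among vehicle libraries, where B had the most reads and the fewest calls. The deposited table names the libraries in which each region was called: 10147, 8332, 9321 and 12316 regions for vehicle A to D, against 1169, 12882, 8573 and 11306 for corticosterone A to D. The mean was 10030 ± 1700 for vehicle and 8482 ± 5190 for corticosterone (SD, n = 4 each; exact two-sided permutation p = 0.743, adjusted 0.743). Corticosterone A had few calls as well as few reads. Of the 6164 regions with calls in exactly 3 of 4 corticosterone libraries, 5996 lacked a call only in that library.

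**Figure D1:**
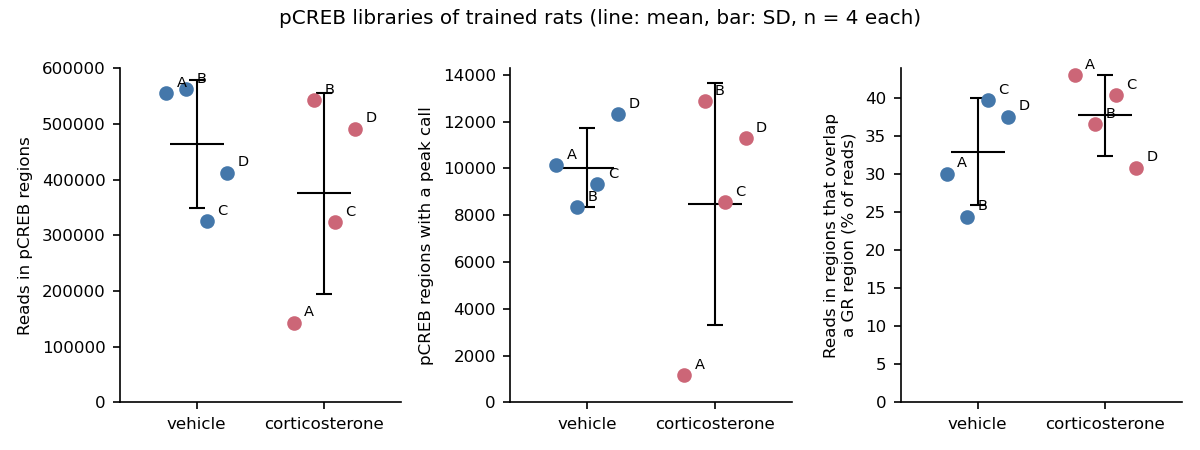
Each point is 1 pCREB library of trained rats, lettered A to D. The vertical axes give counted reads, the number of regions with a peak call and the percent of reads in regions that overlap a GR region. The long line is the mean and the bar the SD of 4 libraries. Corticosterone A stands apart in reads (143219) and calls (1169), and the groups overlap in all 3 measures.

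A region entered the list through calls, so that being listed in one group depends on that library too. Calls in at least 3 of 4 libraries of both groups were found at 5086 regions, of which 49.6% overlapped a GR region. A further 4398 had them in vehicle only (18% with GR overlap) and 2064 in corticosterone only (24.4%), and 3174 had fewer than 3 calls in both groups (13.5%). Calls in all 8 libraries were found at 813 regions. The 28 regions with 4 calls in vehicle and 0 in corticosterone, and the 4 with the opposite pattern, were picked by the same libraries and serve as a description only.

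Further checks concern the identity and independence of the libraries. Regions called in a library had their highest relative count in that library's own column for 15 of 16 pCREB libraries, and the exception was trained corticosterone A. Results are therefore also given without it. Each condition was sequenced under a lane number of its own, 7 for trained vehicle and 8 for trained corticosterone, so that lane and treatment cannot be told apart. Over the 12 pairs of libraries within the 2 trained groups, the chi-square per degree of freedom was 1.87 or more. Within these pairs no library was a copy of the other, and other pairs were not compared in this way.

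The question of whether pCREB sites shared with GR behaved differently was addressed with the same fit, divided by class. Regions with GR overlap were wider, with a median of 500 bp against 444 bp. Their median level per length was 108 CPM per kb in vehicle (CPM are read counts scaled by edgeR to the depth of each library after TMM) and 115 in corticosterone, and it was 97.5 and 97.3 CPM per kb in regions without. The fitted log2 fold change was positive at 2739 of 4234 tested regions with GR overlap (64.7%, median 0.098) and at 4496 of 10319 without (43.6%, median -0.075), against 7235 of 14553 (49.7%) over all. From the 5th to the 95th percentile the changes ran from -0.36 to 0.54 with and from -0.71 to 0.58 without GR overlap. The medians differed by 0.174 on the log2 scale.

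The 0.174 is a difference between 2 medians of fitted changes at single regions and was not itself tested over libraries. A related value of each library overlapped between the groups. Within each library, the median log2 CPM of regions with GR overlap exceeded that of regions without. The excess was 0.3013 to 0.5139 in vehicle and 0.2182 to 0.5161 in corticosterone, with means of 0.3934 ± 0.103 and 0.4047 ± 0.142 (SD, n = 4 each). These means differed by 0.0112 (exact two-sided permutation p = 0.971, outside the adjustment over 3 tests). A median over a whole class hardly moves with its strongest regions, where the difference between the classes was concentrated. This p therefore cannot decide whether the 0.174 holds over libraries. The share of reads in regions with GR overlap was 30.06%, 24.41%, 39.74% and 37.57% in vehicle A to D. It was 43.03%, 36.6%, 40.42% and 30.86% in corticosterone A to D. The groups overlapped, and the means were 32.95% ± 7.04 and 37.73% ± 5.29 (SD, n = 4 each; exact two-sided permutation p = 0.314, adjusted 0.6). These shares include the 3 mitochondrial regions, which all overlap a GR region. Without them the means were 30.76% ± 7.04 and 34.9% ± 4.2 (exact two-sided permutation p = 0.314), and corticosterone A had 38.13%. Without the strongest 1% of regions, corticosterone A had 31.62%. Vehicle B held the lowest share of the 8, and without it the difference of the medians was 0.047.

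Counts at an unadjusted p under 0.05, none of which survived adjustment, were read against those of all regions. Higher after corticosterone were 396 regions of all tested (2.72%), 114 with GR overlap (2.69%) and 282 without (2.73%), so that the 2 classes sat at the background. Lower were 469 of all (3.22%), 34 with GR overlap (0.803%) and 435 without (4.22%). Without vehicle B the lower regions numbered 34 with and 172 without GR overlap, beside 61 and 181 higher. Without corticosterone A they numbered 40 and 413, beside 102 and 303 higher. Leaving out vehicle C gave 43 and 1428 lower, and leaving out vehicle D gave 35 and 917, so that single libraries decided this count.

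The split of these regions into higher and lower also moved with the scaling between libraries. Each fit has its own regions at an unadjusted p under 0.05. With TMM factors 45.8% of them were higher, and the share was 69.2% with library totals alone, 30% with TMM factors from the GR-overlapping regions and 32.6% with DESeq2. The median change of all regions moved to 0.1 with library totals and to -0.105 with factors from GR-overlapping regions. The difference between the 2 classes was 0.151 and 0.184 in those fits.

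Complete separation of the 2 groups of 4 libraries in CPM was seen at 210 regions with corticosterone above vehicle (1.44% of those tested) and at 110 with corticosterone below (0.756%). Of regions with GR overlap, 74 were separated upwards (1.75%) and 26 downwards (0.614%). Of those without, 136 (1.32%) and 84 (0.814%) were. These shares lie close to the background in both classes.

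**Figure D2:**
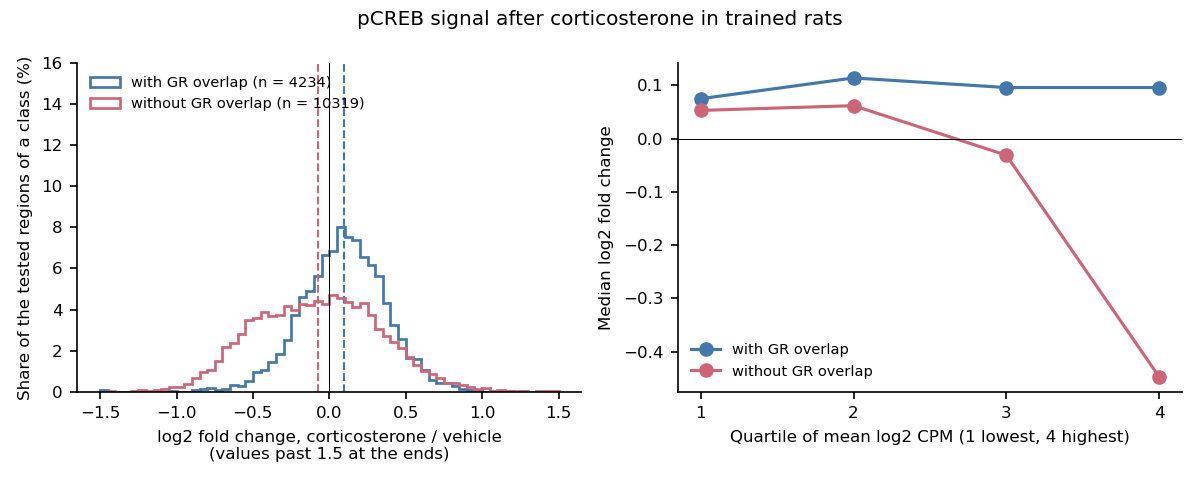
Left, distribution of the log2 fold change (corticosterone over vehicle, trained rats) in percent of the tested regions of each class, with dashed lines at the medians of 0.098 (with GR overlap) and -0.075 (without). Right, median log2 fold change by quartile of the mean level over the 16 libraries. The regions without GR overlap have a broad left shoulder, and their highest quartile has a median of -0.447.

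The difference between the classes was concentrated in strong, wide regions. In the highest quartile of mean level, the median log2 fold change was 0.096 in 1236 regions with GR overlap and -0.447 in 2402 without. In quartiles 1, 2 and 3 it was 0.075, 0.114 and 0.096 with overlap, and 0.053, 0.062 and -0.031 without. The highest quartile of regions without GR overlap had a median width of 822 bp, and 87.3% of them were wider than 600 bp. Of the 435 lower regions without GR overlap, 174 lay in that quartile, beside 4 higher ones.

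A limit of 600 bp, set after the values were seen, describes a largely shared set by width and carries no test. Of the regions without GR overlap above it, 2098 (73%) lay in the highest quartile of level. The 2873 regions without GR overlap wider than 600 bp had a median log2 fold change of -0.39 with 555 positive (19.3%). The 7446 tested narrower ones had a median of 0.027 with 52.9% positive. Regions with GR overlap showed no such contrast by width, with medians of 0.106 (1298 wide regions) and 0.095 (2933 narrower ones). In untrained rats the wide regions without GR overlap had a median of -0.126.

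These wide regions took very different shares of the reads from library to library. They held 42.1%, 52.2%, 27.5% and 31.1% of the counted reads in vehicle A to D. They held 30.9%, 32.2%, 25.9% and 40.1% in corticosterone A to D. Vehicle B had the highest share of all 16 pCREB libraries and corticosterone C the lowest, while vehicle C and D lay among the corticosterone libraries. The means were 38.2% ± 11.2 and 32.3% ± 5.88 (SD, n = 4 each).

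Without vehicle B, the median log2 fold change of the wide regions without GR overlap was -0.043, with 15 higher and 11 lower at an unadjusted p under 0.05 where all libraries gave 18 and 187. In the highest quartile it was -0.061 without vehicle B. With the balance of reads between the 2 classes in each library as a covariate, the medians were 0.013 with and 0 without GR overlap, and the wide regions without overlap had 0.01. The covariate was added after the data were seen, and since it is itself the balance between the classes, it removes their difference by construction. What set the balance of reads in a library was not tested.

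**Figure D3:**
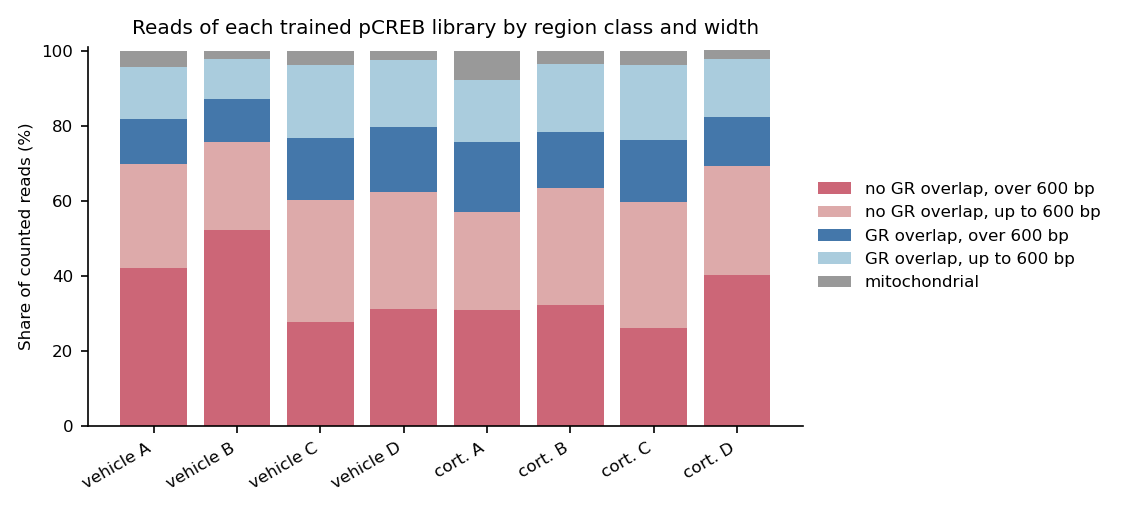
Stacked bars give, for each trained pCREB library, the percent of counted reads in regions without GR overlap (wide and narrower than the limit of 600 bp), in regions with GR overlap (likewise) and in the 3 mitochondrial regions. The mitochondrial regions also overlap GR regions and are set apart only in this figure. The lowest segment, wide regions without GR overlap, runs from 25.9% in corticosterone C to 52.2% in vehicle B.

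The regions with the smallest p in each direction and class, among those above the median level, show what single regions looked like. None passed the test, each had an adjusted p of 0.78 in edgeR's quasi-likelihood test, and coordinates are those of build rn6. With GR overlap, the smallest p among higher regions was at chr1:164412660-164413430, with 26, 21, 14 and 21 reads in vehicle A to D and 8, 59, 33 and 39 in corticosterone A to D. This is 46.6 ± 5.21 CPM against 84.3 ± 16.7 CPM (SD, n = 4 each), a log2 fold change of 0.89 (SE 0.26). After scaling, all 4 corticosterone libraries lay above all 4 vehicle libraries. Its GR signal differed by 0.06 on the log2 scale in the same rats (SE 0.28).

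A similar size was seen at the 4 regions that followed. At chr2:149388504-149389007, reads numbered 27, 15, 23 and 25 in vehicle and 18, 60, 33 and 34 in corticosterone, and the log2 fold change was 0.9 (SE 0.29). At chrUn.142:4356-5022, on a sequence not placed on a chromosome, it was 0.85 (SE 0.29). At chr7:143609595-143610167 it was 0.79 (SE 0.29) and at chr18:80701796-80702304 it was 0.77 (SE 0.29). The groups did not overlap at these 4 regions either, and the changes in untrained rats were -0.03, -0.14, -0.33 and 0.07. All were picked by their p in trained rats, so that smaller values in untrained rats carry no weight. The interaction had an adjusted p of 0.999 at each in edgeR's quasi-likelihood test.

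Among regions with GR overlap that were lower, 4 of the 5 with the smallest p had high counts in 2 vehicle libraries only. At chr7:144015523-144017621, 2099 bp wide, reads numbered 123, 3842, 143 and 1838 in vehicle A to D and 167, 163, 151 and 196 in corticosterone A to D. Scaled for depth this is 3500 ± 4170 CPM against 608 ± 486 CPM (SD, n = 4 each), and the fitted difference was -2.55 on the log2 scale (SE 0.81). Vehicle B and D were high, and vehicle A and C lay within or below the range of the corticosterone libraries.

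The same libraries were high at the neighbouring regions. At chr7:144038490-144040019 the reads were 43, 1367, 54 and 636 in vehicle and 48, 41, 33 and 55 in corticosterone, a log2 fold change of -3.03 (SE 0.89). At chr7:144040527-144041196 they were 24, 689, 29 and 301 against 28, 37, 25 and 20 (log2 fold change -2.8, SE 0.88). On chromosome 1, chr1:265469311-265469974 had 43, 540, 37 and 585 reads against 32, 83, 18 and 58 (log2 fold change -2.38, SE 0.67). The 2 groups overlapped at all 4 regions. The fifth, chr1:225149525-225149934, had 73, 53, 24 and 40 reads against 3, 33, 23 and 36, and a log2 fold change of -0.85 (SE 0.3).

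Without GR overlap, the smallest p of all named regions was at chr17:32952915-32953659. Reads numbered 31, 50, 20 and 19 in vehicle A to D and 4, 16, 4 and 21 in corticosterone A to D, or 69.2 ± 33.4 CPM against 28.4 ± 13.1 CPM (SD, n = 4 each). The fitted value was -1.26 on the log2 scale (SE 0.34), the groups did not overlap, and the region had 3 calls in vehicle and 0 in corticosterone. In untrained rats it was 0.26, and the difference between the 2 effects was -1.52 (SE 0.47; interaction adjusted p = 0.999 in edgeR's quasi-likelihood test).

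Another lower region was more even among its replicates. At chr12:44832666-44833011 the reads were 32, 28, 24 and 26 in vehicle and 5, 12, 13 and 19 in corticosterone, or 63.5 ± 3.45 CPM against 33.9 ± 8.77 CPM (SD, n = 4 each). Its fitted value was -0.97 (SE 0.3), with 4 calls in vehicle and 0 in corticosterone. The groups also did not overlap at chr1:65540831-65541415 (log2 fold change -1.04, SE 0.3), while they overlapped at chr7:11293957-11294518 (-1.21, SE 0.37) and chr1:1885601-1886141 (-1.11, SE 0.34).

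Among regions without GR overlap that were higher, chr3:147567335-147567869 had the smallest p. It held 18, 16, 20 and 17 reads in vehicle and 13, 42, 28 and 30 in corticosterone, or 41.7 ± 9.45 CPM against 78.8 ± 18 CPM (SD, n = 4 each; log2 fold change 0.86, SE 0.26). The groups did not overlap. The log2 fold changes at chr2:45733150-45733824, chr1:197310233-197310762, chr10:11966033-11966508 and chr7:11286273-11286618 lay between 0.85 and 0.87, and only at the chromosome 2 region did the groups overlap. The last of these lies close to the lower region chr7:11293957-11294518.

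**Figure D4:**
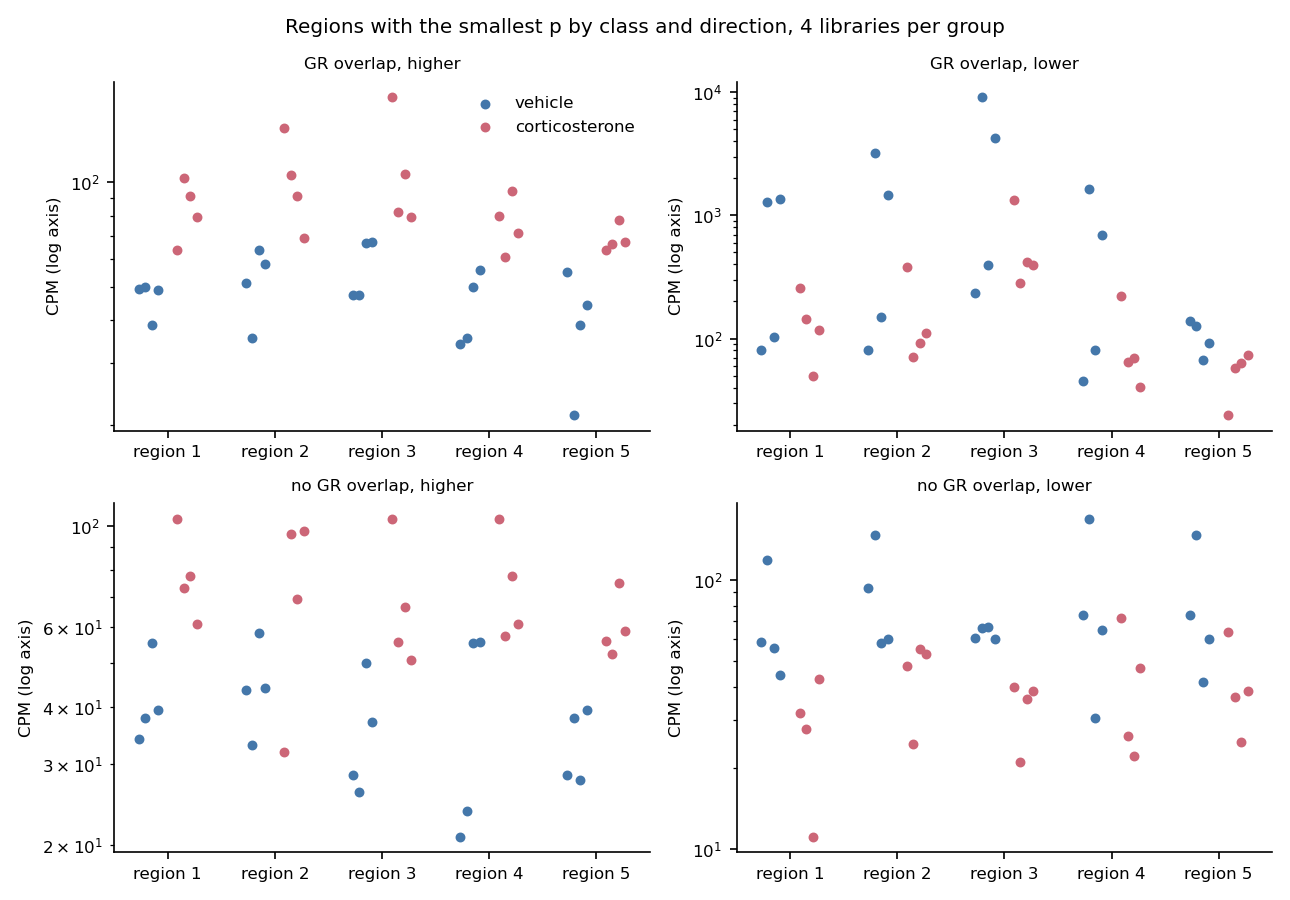
CPM on a log axis in 4 vehicle (blue) and 4 corticosterone (red) pCREB libraries of trained rats. Each panel shows the 5 regions with the smallest p in a class and direction, in order of p. In the upper right panel, 2 vehicle libraries, B and D, lie far above all others at regions 1 to 4, and in the other panels the groups differ by less than 3-fold in mean.

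The strongest pCREB regions did not pass the test either. Of placed regions with GR overlap, the highest level per length was at chr4:77447818-77448488, with 1564, 1623, 1232 and 1439 reads in vehicle and 1059, 1506, 1282 and 1607 in corticosterone (log2 fold change 0.4, SE 0.37, adjusted p = 0.801 in edgeR's quasi-likelihood test). Without corticosterone A the value was -0.11, so that its sign rested on that library. Reads in corticosterone A were fewer there than in the other libraries, but they were a larger part of a small total. The other 4 of the 5 strongest regions with GR overlap lay on unplaced sequences.

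At these 4 regions the high libraries were vehicle B and D and corticosterone A. At chrUn.302:5802-7256 reads numbered 736, 4755, 249 and 3520 in vehicle and 4626, 617, 517 and 418 in corticosterone. At chrUn.51:1-655 they numbered 452, 2541, 163 and 2039 against 2494, 414, 334 and 299. The log2 fold changes were 0.9 (SE 1.18) and 0.87 (SE 1.1), and those at chrUn.284:937-1629 and chrUn.143:1-294 were 1.06 (SE 0.53) and 0.81 (SE 0.51). All 4 values turned negative without corticosterone A. Such sequences can share reads with near-identical copies elsewhere, which would make their counts uncertain. Whether they did so here was not tested.

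The strongest regions without GR overlap were lower at 4 of 5, and none passed. The region chr12:18751150-18753239 held 945, 1103, 284 and 454 reads in vehicle and 153, 684, 290 and 748 in corticosterone (log2 fold change -0.4, SE 0.37). At chr14:1469048-1470503 the value was -0.55 (SE 0.38), at chr1:148449183-148450887 it was -0.26 (SE 0.37), and at chr20:10981689-10982168 it was -0.63 (SE 0.37). The exception was chr12:1510043-1510397 with 0.47 (SE 0.35). Vehicle A and B were the highest vehicle libraries at the 4 lower regions, as they were in the share of reads in wide regions.

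Where GR was called for corticosterone averaged over training, the pCREB value in trained rats was positive at 9 of 10 tested regions. These 9 include chr10:36884298-36884738, where GR was lower. The 95% interval included 0 at 8 of the 10. In the GR libraries, 83 of 4968 tested GR regions (1.67%) were called for corticosterone averaged over training, and 6 (0.121%) in trained rats alone. Of the 83 called regions, 11 (13.3%) overlapped a pCREB region, whereas 4064 of all 4968 tested GR regions (81.8%) did, so that most called GR regions lie outside the pCREB list. Of the 11 overlapping pCREB regions, 10 could be tested. Among these 10, GR was also called in trained rats alone only at chr19:57346506-57346721 (adjusted p = 0.0162 in edgeR's quasi-likelihood test). GR was higher after corticosterone at 9 of the 10, and the pCREB log2 fold change was positive at 8 of these 9, with a median of 0.45 and a range from -0.09 to 1.11. For comparison, 64.7% of all tested regions with GR overlap were positive. The GR and pCREB libraries were made from the same chromatin pools, and the regions were chosen by the GR values. They were also listed through pCREB calls, which several had mainly after corticosterone. Calls in trained vehicle and corticosterone numbered 0 and 3 at chr15:58884560-58884920, and 1 and 3 at chr20:29814215-29814448 and chr1:164508583-164508883. Only chr10:36884298-36884738 (4 and 3) and chr11:31424442-31424758 (2 and 1) had more in vehicle. The number of positive values is therefore a description only.

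The largest of these pCREB values was at chr20:29814215-29814448. Reads numbered 11, 4, 6 and 3 in vehicle A to D and 4, 13, 14 and 15 in corticosterone A to D, or 13.5 ± 6.4 CPM against 31 ± 6.62 CPM (SD, n = 4 each). The groups did not overlap, and the pCREB log2 fold change was 1.11 (SE 0.37; adjusted p = 0.78 in edgeR's quasi-likelihood test), beside 0.95 (SE 0.39) for GR. At chr1:164508583-164508883 the reads were 17, 9, 10 and 5 against 4, 16, 20 and 23, with a pCREB log2 fold change of 0.8 (SE 0.36) beside 0.9 (SE 0.33) for GR, and the groups overlapped.

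The regions with the largest GR changes in trained rats had pCREB values between 0.42 and 0.84. At chr15:58884560-58884920, GR differed by 1.98 (SE 0.47) and pCREB by 0.56 (SE 0.34), from 19, 13, 10 and 6 reads in vehicle to 4, 22, 18 and 19 in corticosterone. At chr19:57346506-57346721, GR differed by 1.99 (SE 0.37), while pCREB held 0 to 8 reads per library and a value of 0.84 (SE 0.61). At chr11:31424442-31424758 the values were 1.35 (SE 0.3) for GR and 0.42 (SE 0.36) for pCREB, and at chr16:71597248-71597613 they were 1.18 (SE 0.34) and 0.43 (SE 0.34).

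At the remaining regions no pCREB interval excluded 0. The pCREB log2 fold change was 0.45 (SE 0.29) at chr8:66126051-66126365 and 0.32 (SE 0.26) at chr15:106543116-106543562. It was -0.09 (SE 0.33) at chr2:207460789-207461072, where GR differed by 0.92 (SE 0.34). At chr10:36884298-36884738, where GR was lower (-0.86, SE 0.29), pCREB differed by 0.13 (SE 0.29). The untested region, chr6:27802151-27802359, held 6, 4, 6 and 4 reads in vehicle and 2, 7, 5 and 5 in corticosterone.

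**Figure D5:**
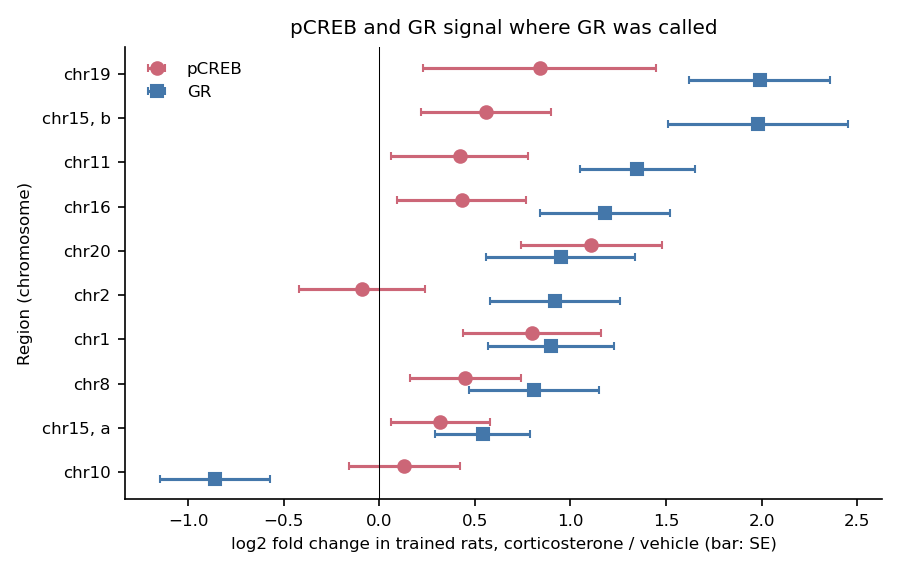
Log2 fold change of pCREB (circles) and GR (squares) in trained rats, corticosterone over vehicle, at 10 tested pCREB regions. Each overlaps a GR region called for corticosterone averaged over training. Bars are standard errors, and regions are named by chromosome. GR is higher at 9 of 10, and the pCREB value is above 0 at 8 of these 9.

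Over all 4032 regions that overlap 1 to 1 and were tested for both proteins, the 2 log2 fold changes had a Pearson's r of -0.000525 and a Spearman's rho of -0.00922. This is a description across regions, which are not independent and whose counts come from the same 8 chromatin pools.

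The effect in trained rats was not shown to differ from that in untrained rats. In the interaction of corticosterone and training, 0 of 14553 regions (0%) were called by edgeR's quasi-likelihood test, with a smallest adjusted p of 0.999, and 480 had an unadjusted p under 0.05. DESeq2 called 0, with 401 at an unadjusted p under 0.05. The interaction had a median standard error of 0.455, so that differences between trained and untrained rats were measured less precisely than the effect itself. In untrained rats the median log2 fold change was 0.026 with and -0.038 without GR overlap, a difference of 0.064 beside 0.174 in trained rats. At the 9 regions where GR was higher, the pCREB value in untrained rats was positive at 8, though not the same 8, with a median of 0.41. The 2 regions whose interval excluded 0 in trained rats had untrained values of 0.06 (chr20:29814215-29814448) and -0.08 (chr1:164508583-164508883). At chr2:207460789-207461072, negative in trained rats, the untrained value was 0.67.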

How the data were processed

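The authors deposited unnormalized read counts for each region, with pCREB and GR regions listed apart. The submitters' processing notes name HTSeq 0.6.1-1, bedtools 2.26.0, MACS2 2.1.1.20160309 and BWA 0.7.10, and build rn6. Regions were merged from peaks called in single libraries, per the peak names in the deposited table, so that the list depends on the libraries compared. The test was edgeR 4.0.16, run in R 4.3.3 (robust quasi-likelihood fit, TMM, filterByExpr by condition) over 16 pCREB libraries in 4 groups, with Benjamini-Hochberg adjustment over all tested regions and calls at 0.05. The code was tested on simulated data. Standard errors were computed from each F statistic. Library values were compared with exact permutation tests (scipy 1.17.1). Named were, per class, the 5 regions with the smallest p in each direction above the median level, the 5 with the highest CPM per kb outside mitochondrial DNA, and every tested region at a called GR region. DESeq2 1.42.0, other scalings, filters, thinning to equal total reads (not equal reads per region), letter blocks and left-out libraries were alternatives. Rat pools are separate samples; letters do not pair them, and same-letter correlations of deviations were 0.12, -0.17, 0.51 and -0.34. Whether reads or the number of replicates limited precision was not tested. The members and lists were chosen with earlier results of these data known. No rn6 genome or annotation was used, so that regions were not assigned to genes, and the planned gene lists and motif counts were not run. Inputs were not analysed here.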

Additional observations from a re-analysis of the deposited data

Results flagged for a closer look

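In 90 groups of 4 libraries (library measures and the CPM of the named regions), 10 values stood apart from the other 3 of their group. Among independent groups chance does so in about 1 in 20. The groups here share libraries, and many are regions picked by their values, so that 10 of 90 cannot be set against that rate. Of the 10, 9 belong to trained corticosterone A. Reads on unplaced sequences made up 7.12% of its counted reads. Its CPM was 36900 at chrUn.302:5802-7256, 19900 at chrUn.51:1-655, 8880 at chrUn.284:937-1629 and 4320 at chrUn.143:1-294. It was 8440 at chr4:77447818-77448488, where the other corticosterone libraries had 2620, 3550 and 3260. At the 3 neighbouring chromosome 7 regions it was 1330 (chr7:144015523-144017621), 383 (chr7:144038490-144040019) and 223 (chr7:144040527-144041196). The tenth value was that of trained vehicle C at chr1:164412660-164413430, with 38.9 CPM beside 49.3, 49.7 and 48.7 in the other vehicle libraries. The causes were not tested.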

How the results depend on the processing

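In all 24 fits, 0 pCREB regions were called, and the smallest adjusted p in any was 0.122. The replicate block (letters A to D) called 0 regions with 16 libraries. With the 8 trained libraries and an unadjusted p under 0.05, the block gave 74 higher and 18 lower with GR overlap. Without overlap it gave 191 higher and 220 lower. Without a block those 8 gave 75 higher and 24 lower with, and 211 higher and 193 lower without. Library totals gave 152 higher and 9 lower with, and 386 higher and 230 lower without. TMM from GR-overlapping regions gave 69 higher and 78 lower with, and 180 higher and 502 lower without. Thinning to the shallowest library gave 84 higher and 15 lower with, 61 higher and 214 lower without, and a difference of medians of 0.346. The class-balance covariate, which removes the difference by construction, gave 94 higher and 73 lower with, 236 higher and 246 lower without, and 0.013. Without the 2 shallowest libraries and vehicle B, 56 were higher and 44 lower with, and 215 higher and 178 lower without. GR calls in trained rats at overlapping regions numbered 1, and 3 with library totals or DESeq2. Leaving out 1 library gave 61 to 217 higher and 30 to 43 lower with, 161 to 439 higher and 172 to 1428 lower without, and differences of medians from 0.047 to 0.221. Of 901 values for named regions, 27 changed sign. Without corticosterone A (and without the 2 shallowest libraries) chrUn.51:1-655 had -2.01, chr4:77447818-77448488 -0.11, chrUn.302:5802-7256 -2.27, chrUn.143:1-294 -0.65 and chrUn.284:937-1629 -0.53, and with vehicle B also left out -1.43, -0.04, -1.62, -0.39 and -0.2. With the block, chrUn.51 had -0.04 and -0.46 and chrUn.302 -0.09 and -0.61 (16 and 8 libraries). With the covariate chr14:1469048-1470503 had 0.03, chr1:148449183-148450887 and chr12:18751150-18753239 0.13 each and chr2:207460789-207461072 0.2. The last had 0.04 with library totals, with the block of 8 libraries and without corticosterone B, and 0.17 without vehicle A. Leaving out 1 library gave values up to 1.47 at chrUn.51, 0.58 at chr4:77447818-77448488, 1.57 at chrUn.302, 1.11 at chrUn.143 and 1.4 at chrUn.284, and down to -0.26 at chr2:207460789-207461072. The causes were not tested. For lack of reads 169 regions were not tested, and corticosterone A had a median of 6 reads per region.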

Other observations

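The 3 mitochondrial pCREB regions took 2.05% to 4.34% of the counted reads in trained vehicle libraries and 2.35% to 7.91% in trained corticosterone libraries. Their log2 fold changes lay between 0.46 and 0.49, with adjusted p from 0.798 to 0.804 in edgeR's quasi-likelihood test. Chromosome 1 held the most regions of any chromosome (1603, 10.9% of all), of which 26.2% overlapped a GR region. Chromosome X held 107 regions (0.727%), of which 15% overlapped a GR region and 39.3% were wider than 600 bp. The median log2 fold change of the 106 tested ones was -0.322, and -0.083 without trained vehicle B. The first principal component of the 16 pCREB libraries took 31.4% of the variance and placed trained vehicle B at one end (-74.36) and trained corticosterone C at the other (49.71), and the second (14.8%) set trained corticosterone A apart from the other 15.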
